A study of Mus musculus with 8 samples.

Results

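The 34 genes described here mark the cells of brain blood vessels and of the membranes around the brain: 15 mark endothelial cells, 9 mural cells, 7 fibroblasts, and 3 encode matrix proteins that several of these cells make. They were chosen by name, as known markers, though with earlier results of these data known. All 34 were found among the 54532 genes of the count table. After removal of genes with too few counts, 33 of the 34 were tested among 16745 genes. The exception was Tagln.

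RNA was sequenced from the medial prefrontal cortex of adult male C57BL/6 mice in a study of the retrieval of METH-associated place memory (METH, methamphetamine). In conditioned place preference (CPP), an animal learns to link a place with a drug, and a later test reads out that memory. Tissue was taken 1 h after the CPP test ended, and each of the 8 libraries pooled 2 to 3 mice. The labels give 4 libraries as retrieval and 4 as non-retrieval and do not say how the handling of the non-retrieval mice differed. Each pool counts as 1 replicate, so the spread within a group is a spread between pools.

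Endothelial cells line the vessel wall and, in the brain, form the blood-brain barrier through tight junctions and selective transporters. Pericytes on capillaries and smooth muscle cells on arterioles make up the mural cells, which support the barrier and set vessel calibre. Fibroblasts lie in the meninges and around larger vessels, where they make fibrillar collagens, while the basement membrane between these layers is built from type IV collagen, laminins and fibronectin. In bulk tissue, fewer cells of a type and less RNA per cell cannot be told apart.

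Library totals ran from 25013503 to 29547978 counts, and values below are CPM, counts scaled to each library's total and its TMM factor. Over all genes, edgeR's quasi-likelihood test called 766 of 16745 at a Benjamini-Hochberg adjusted p under 0.05, a share of 4.57%, and 615 of them, or 3.67% of the genes tested, were higher in retrieval. Markers of other cells differed between libraries too. The summed level of 15 myelin markers was 3643 to 4246 CPM in non-retrieval pools and 4377 to 6276 CPM in retrieval pools, without overlap, and 7 of the 15 were called higher. Retrieval replicate 2 had the highest mean of 11 striatal neuron markers, 4.64 log2 CPM against 3.56 to 3.84 in the other libraries. Summed microglial and macrophage markers (328 to 390 CPM over the 8 libraries) and erythroid markers (52.8 to 68.8 CPM in non-retrieval, 43.7 to 56.7 CPM in retrieval) overlapped between groups, and 1 of 5 erythroid markers was called lower.

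Of the 33 vascular and meningeal genes tested, 3 rose with retrieval and none fell: Fn1 (fibronectin), Col1a2 (the alpha-2 chain of type I collagen) and Myh11 (smooth muscle myosin heavy chain). Of all tested genes, 4.57% were called in either direction and 3.67% as higher. No endothelial marker was called in either direction by edgeR, though Flt1 and Vwf were higher at an unadjusted p under 0.05 and Flt1 passed in DESeq2. At an unadjusted p under 0.05 there were 9 genes, 8 of them higher, where 18.5% of all tested genes passed in either direction and 11.2% as higher. Groups did not overlap for 4 genes, namely Fn1, Myh11 and Flt1, higher in retrieval, and Vtn, lower in retrieval. Over all tested genes, groups did not overlap for 11.1%, and for 6.59% with retrieval higher. The median log2 fold change of the 33 genes was 0.10, against -0.01 over all tested genes. Above 0 were 20 of the 33, or 60.6%, against 47.8% of all tested genes. By class the medians were 0.03 for endothelial, 0.04 for mural, 0.21 for fibroblast and 0.21 for shared matrix genes. Leaving out replicate 3 of non-retrieval moved the fibroblast median to 0.037, leaving out replicate 4 of that group to 0.49, and leaving out replicate 4 of retrieval to 0.33.

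**Figure D1:**
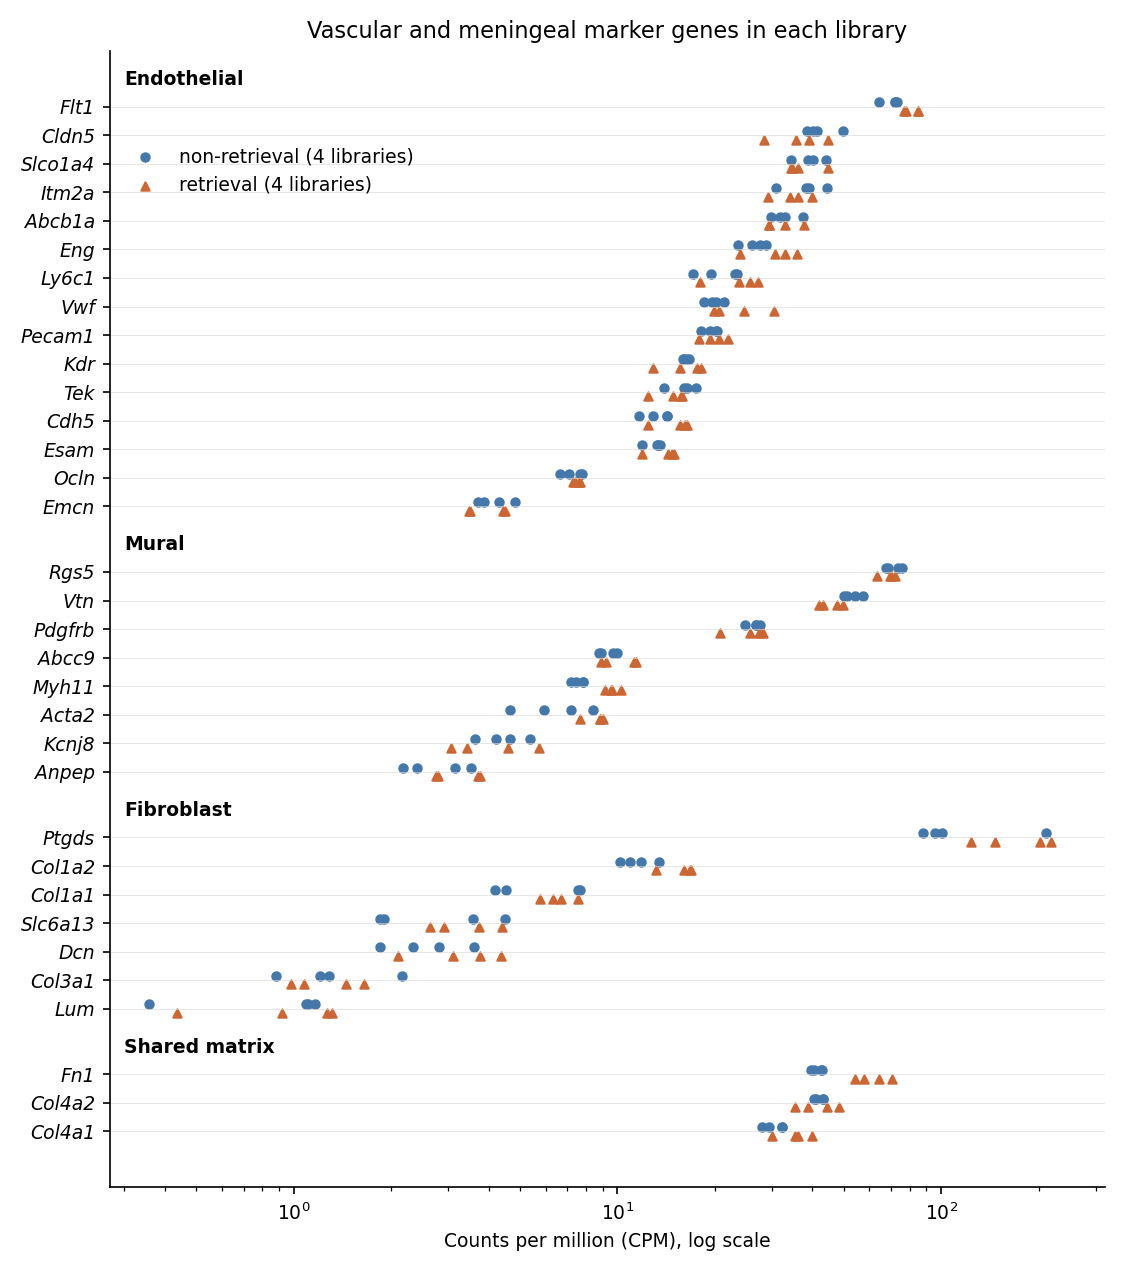
Level of each tested marker in each of the 8 libraries, in CPM on a log axis, with circles for the 4 non-retrieval and triangles for the 4 retrieval libraries. The triangles lie to the right of all circles for Fn1, Myh11 and Flt1 and to the left for Vtn, and the fibroblast genes are spread widest.

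**Figure D2:**
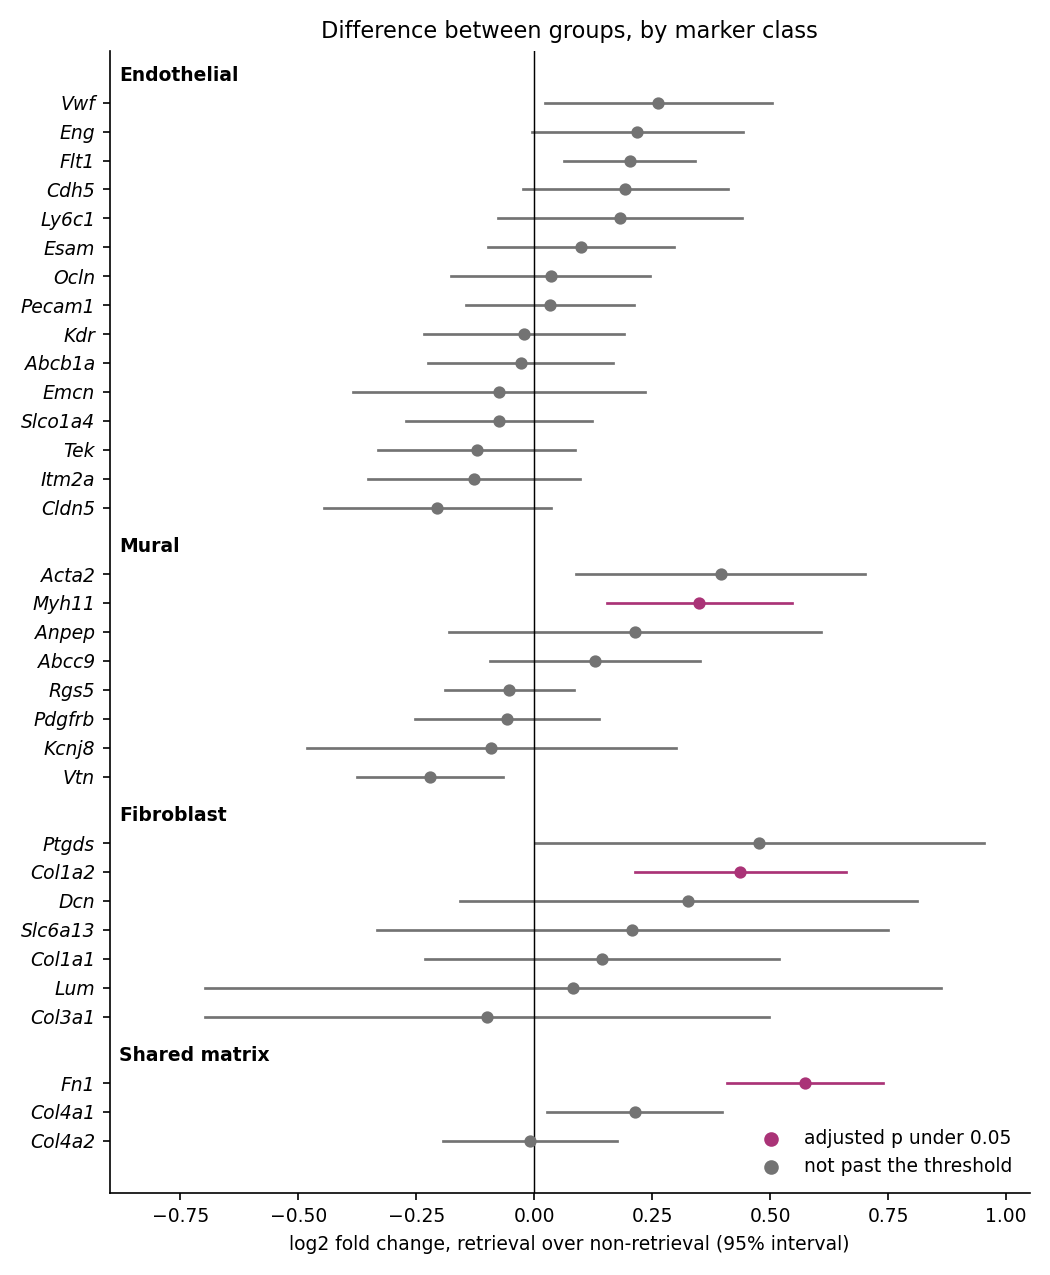
Log2 fold change of each tested marker, retrieval over non-retrieval, with its 95% interval from the edgeR fit. The 3 coloured genes, Fn1, Col1a2 and Myh11, passed an adjusted p under 0.05, and no endothelial gene did.

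Compared per kilobase of gene model, the level of Ptgds (prostaglandin D2 synthase, made by arachnoid and other meningeal cells and also by oligodendrocytes) was the highest of the 34, at 89.9 ± 33.2 CPM per kilobase (SD over the 8 libraries). Next came the tight junction gene Cldn5 at 28.04 ± 4.46, the pericyte-enriched adhesion protein gene Vtn at 24.3 ± 2.56 and the endothelial membrane protein gene Itm2a at 20.9 ± 2.85, all on the same scale. Cldn5 and Vtn differed by less than the larger SD of the pair, and Vtn and Itm2a by more. That SD is a gene's spread over libraries of both groups, so it does not settle how different genes rank. At the other end stood Dcn at 0.513, Lum at 0.391, Col3a1 at 0.136 and Tagln at 0.0416 CPM per kilobase. These low genes of fibroblasts, Dcn, Lum and Col3a1, had 10 to 130 counts per library, whereas Flt1 had 1790 to 2333.

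The first group of endothelial genes are growth factor receptors. Flt1 and Kdr encode VEGF receptors 1 and 2, the former a high-affinity receptor that can also act as a decoy and the latter the main signalling receptor. Both genes lie on chromosome 5 on the minus strand. The stretches upstream of their RefSeq start sites are shown so that these related receptor genes can be read side by side, and capitals mark matches on either strand to a TATA box, spelled TATAAA, and to the GC box, whose letters are GGGCGG. Sequences read 5′ to 3′ on the gene's strand.
Flt1 (GRCm38.p6, chr5:147726012-147726261, minus strand): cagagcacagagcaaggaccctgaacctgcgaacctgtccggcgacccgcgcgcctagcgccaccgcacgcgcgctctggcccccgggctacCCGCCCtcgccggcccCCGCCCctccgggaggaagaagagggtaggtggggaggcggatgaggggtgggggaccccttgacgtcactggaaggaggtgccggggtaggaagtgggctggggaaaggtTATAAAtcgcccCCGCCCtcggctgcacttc
Kdr (GRCm38.p6, chr5:75978459-75978705, minus strand): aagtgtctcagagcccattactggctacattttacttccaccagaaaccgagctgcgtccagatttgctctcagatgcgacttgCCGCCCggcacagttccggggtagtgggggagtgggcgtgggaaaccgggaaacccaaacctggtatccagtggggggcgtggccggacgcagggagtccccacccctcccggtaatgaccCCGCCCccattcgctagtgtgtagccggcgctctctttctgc
The Flt1 stretch held 1 TATA box, at 31 to 26 bases before the start, and 3 GC boxes, while the Kdr stretch held 2 GC boxes and no TATAAA. These matches describe the letters only.

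Flt1 measured 72.2, 72.0, 73.2 and 64.1 CPM in non-retrieval replicates 1 to 4 and 76.9, 77.7, 84.9 and 84.5 CPM in retrieval replicates 1 to 4. Every retrieval library was above every non-retrieval library. The log2 fold change was 0.20 (SE 0.07, 95% interval 0.06 to 0.34), with an unadjusted p of 0.00688 and an adjusted p of 0.0991 by edgeR's quasi-likelihood test, so Flt1 was not called. It passed in DESeq2 (adjusted p = 0.0498), in limma-voom with quality weights (adjusted p = 0.0198) and, in edgeR, without retrieval replicate 1 (adjusted p = 0.0345). Non-retrieval replicate 4 was the low library of its group, and without it the log2 fold change was 0.16, at an edgeR adjusted p of 0.287. With a correction for gene length and GC content its log2 fold change was 0.09, at an edgeR adjusted p of 0.336. Kdr, in contrast, measured 16.1, 16.4, 16.6 and 15.9 CPM in non-retrieval pools and 12.9, 15.6, 17.6 and 18.1 CPM in retrieval pools. The retrieval libraries lay on both sides of the narrow non-retrieval range, with retrieval replicate 1 lowest, and the log2 fold change was -0.02 (95% interval -0.23 to 0.19). Whether the receptors differed from each other was not tested. Tek, the angiopoietin receptor Tie2, was at -0.12 (95% interval -0.33 to 0.09).

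Eng encodes endoglin, a co-receptor for TGF-beta family ligands. It measured 23.6, 26.1, 27.6 and 28.7 CPM in non-retrieval pools and 23.9, 35.8, 30.8 and 32.9 CPM in retrieval pools, so 3 retrieval libraries stood above all non-retrieval ones and retrieval replicate 1 stood among the lowest. Its log2 fold change was 0.22 (95% interval -0.01 to 0.44), and edgeR's adjusted p was 0.283. Without retrieval replicate 1 it was 0.33, at an edgeR adjusted p of 0.0226. Exons of Eng overlap those of Fpgs on the opposite strand, so some of its counts may belong to that gene.

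No junction gene was called, and their log2 fold changes had both signs. Cldn5, the main claudin of the brain endothelial tight junction, measured 40.2, 38.6, 49.9 and 41.4 CPM in non-retrieval pools and 28.3, 39.1, 35.6 and 44.6 CPM in retrieval pools. The groups overlapped, and the log2 fold change was -0.21 (95% interval -0.45 to 0.03; edgeR adjusted p = 0.357). Cdh5 (VE-cadherin, of the adherens junction) was at 0.19 (95% interval -0.02 to 0.41), Esam (an endothelial adhesion molecule) at 0.10, Ocln (occludin) at 0.03 and Pecam1 (the adhesion molecule CD31) at 0.03. The interval for Ocln, -0.18 to 0.25, and that for Pecam1, -0.14 to 0.21, bound the differences these 8 libraries allow.

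The transporters at the barrier were Slco1a4, an organic anion transporter, and Abcb1a, the efflux pump P-glycoprotein. Their log2 fold changes were -0.07 (95% interval -0.27 to 0.12) and -0.03 (95% interval -0.22 to 0.17). Both belong to families with close relatives (other Slco1a genes and Abcb1b), as does Ly6c1 with Ly6c2, so their counts carry some uncertainty from shared reads. Ly6c1, a surface protein of endothelial and myeloid cells, was at 0.18 (95% interval -0.08 to 0.44). Vwf, which encodes von Willebrand factor, measured 19.6, 21.3, 18.5 and 20.2 CPM in non-retrieval pools and 19.9, 24.7, 30.4 and 20.6 CPM in retrieval pools. Retrieval replicates 2 and 3 were above the other 6 libraries, and the log2 fold change of 0.26 had an edgeR adjusted p of 0.227. Emcn (endomucin, a glycoprotein of veins and capillaries) was at -0.07 and Itm2a at -0.13.

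The endothelial genes shared a library pattern within the retrieval group. Retrieval replicate 1 was the lowest of the 8 libraries for 8 of the 15 genes and the highest for none, while retrieval replicate 3 was the highest for 4 and retrieval replicate 4 for 5. How often each library was lowest or highest over all tested genes was not counted. The pattern is therefore not shown to be particular to endothelial genes. Mean endothelial level was 4.19 log2 CPM in retrieval replicate 1 and 4.38, 4.50 and 4.47 in retrieval replicates 2 to 4, with non-retrieval between 4.27 and 4.39. The non-retrieval values thus fell inside the retrieval range. Without retrieval replicate 1, edgeR called 5 of the 33 genes: Fn1, Col1a2, Col4a1, Eng and Flt1. That fit called more genes in all, 1360 of 16966 against 766 of 16745 with every library. Retrieval replicate 1 was also the lowest library in the mean level of 12 astrocyte markers, 7.23 log2 CPM against 7.31 to 7.47, and in summed microglial and macrophage markers, 328 CPM against 353 to 390 CPM. Neither held on the other measure. Summed astrocyte markers were lowest in non-retrieval replicate 4, at 4832.3 CPM against 5078.5 CPM in retrieval replicate 1. Mean microglial and macrophage level was lowest in retrieval replicate 2, at 3.48 log2 CPM against 3.60 in retrieval replicate 1. The part of astrocytes, microglia and macrophages in the low endothelial values was not tested.

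**Figure D3:**
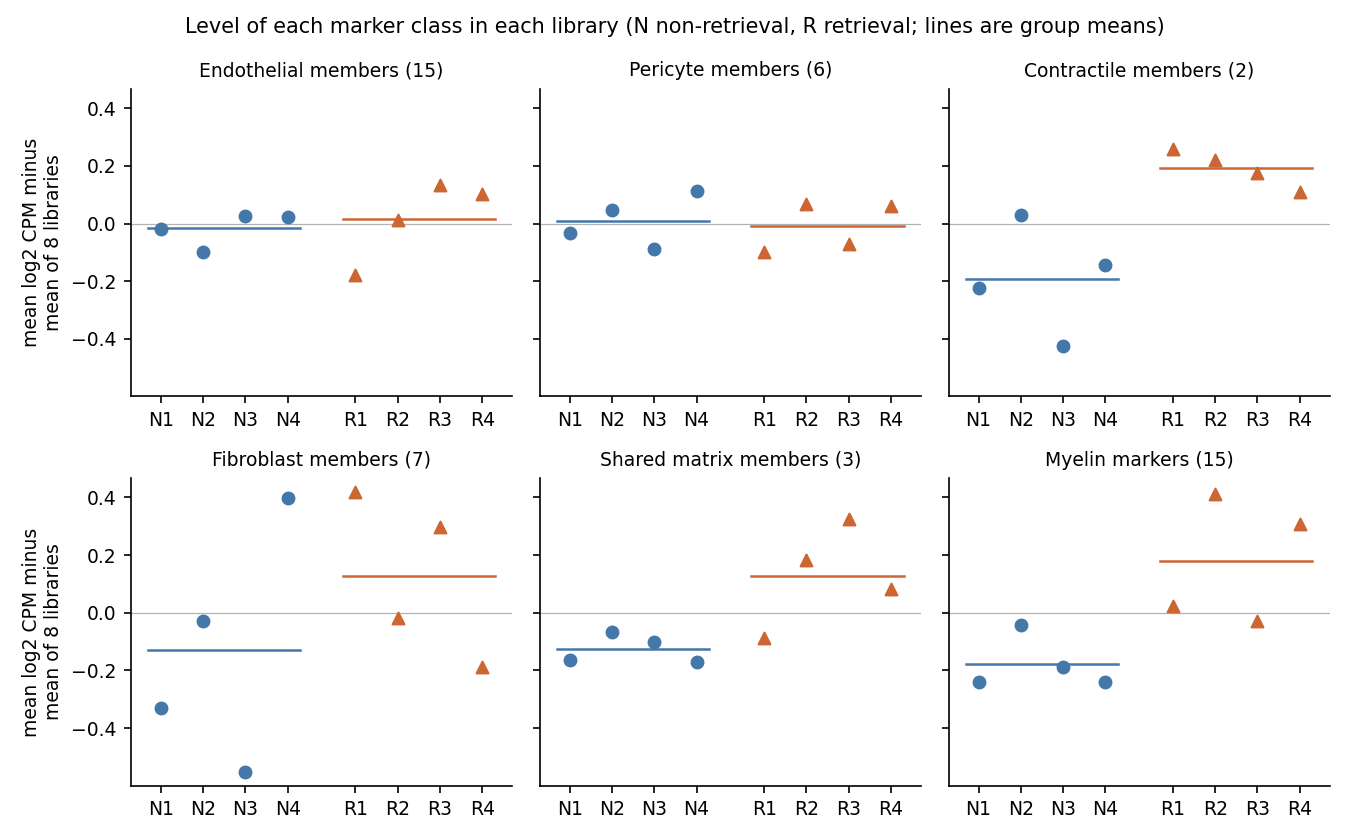
Mean log2 CPM of each marker class in each library, less its mean over the 8 libraries, with group means as lines; Tagln is left out. The endothelial points of the retrieval group spread from the lowest (R1) to the highest (R3) of the 8, the contractile and myelin points separate the groups, and the fibroblast points are high in N4, R1 and R3.

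Among mural genes, none of the 6 pericyte genes was called by edgeR without a replicate block or by DESeq2, with Vtn at an unadjusted p under 0.05, while a contractile gene rose. Pdgfrb, the pericyte receptor for platelet-derived growth factor B, was at -0.06 (95% interval -0.25 to 0.14), and Rgs5, a regulator of G protein signalling, was at -0.05 (95% interval -0.19 to 0.08). The subunits of the pericyte ATP-sensitive potassium channel, Kcnj8 and Abcc9, were at -0.09 (95% interval -0.48 to 0.30) and 0.13 (95% interval -0.09 to 0.35). Anpep, an aminopeptidase, was at 0.21 (95% interval -0.18 to 0.61). Summed over the 6 pericyte genes, the level was 163 to 171 CPM in non-retrieval pools and 152 to 167 CPM in retrieval pools. Rgs5 and Vtn weigh most in that sum, at means of 70.0 and 49.4 CPM over all libraries. The mean level of the 6 genes was 3.82 to 4.02 log2 CPM in non-retrieval and 3.81 to 3.98 in retrieval.

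Vtn encodes vitronectin, an adhesion protein that brain pericytes express strongly. It measured 50.04, 51.2, 54.0 and 57.5 CPM in non-retrieval pools and 43.0, 42.0, 47.6 and 49.9 CPM in retrieval pools. All retrieval libraries were below all non-retrieval libraries, though the closest pair read 49.87 and 50.04 CPM. The log2 fold change was -0.22 (SE 0.07, 95% interval -0.38 to -0.07), with an unadjusted p of 0.00776 and an edgeR adjusted p of 0.106, so the gene was not called. With the replicate number as a block, which no label supports as a pairing, edgeR's adjusted p was 0.00973. Its sequence upstream is shown as the counterpart of Flt1, since it also holds TATAAA; in capitals is a run where matches on both strands overlap, 137 to 130 bases before the RefSeq start.
Vtn (GRCm38.p6, chr11:78498870-78499090, plus strand): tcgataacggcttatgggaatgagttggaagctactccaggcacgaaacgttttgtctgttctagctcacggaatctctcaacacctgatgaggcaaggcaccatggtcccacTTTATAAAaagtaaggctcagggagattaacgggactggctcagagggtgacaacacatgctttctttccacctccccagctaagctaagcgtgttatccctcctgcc

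The contractile genes belong to arteriolar smooth muscle. Myh11 lies on chromosome 16 from 14194535 to 14291372 in the count table. It measured 7.82, 7.84, 7.45 and 7.20 CPM in non-retrieval pools and 10.3, 9.55, 9.15 and 9.63 CPM in retrieval pools. Its libraries separated by group, at 7.58 ± 0.310 CPM in non-retrieval pools and 9.65 ± 0.461 CPM in retrieval pools (SD, n = 4 each). The log2 fold change was 0.35 (SE 0.09, 95% interval 0.15 to 0.55) with an adjusted p of 0.0401 by edgeR's quasi-likelihood test. That call was narrow: it ended with any 1 of the 8 libraries left out (edgeR adjusted p 0.0556 to 0.132), with log2 fold changes between 0.33 and 0.38, and with the mean myelin level as a covariate (log2 fold change 0.34, edgeR adjusted p = 0.359). Upper-quartile scaling (edgeR adjusted p = 0.0609), no low-count filter (0.072) and the length and GC offset (0.0638) ended it too. The mean myelin level itself did not overlap between groups. It was 6.33 to 6.52 log2 CPM in non-retrieval and 6.54 to 6.98 in retrieval. The covariate fit therefore cannot tell group and myelin level well apart.

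Acta2, which encodes smooth muscle actin and can share reads with other actin genes, measured 5.92, 8.41, 4.67 and 7.17 CPM in non-retrieval pools and 8.85, 9.01, 8.81 and 7.64 CPM in retrieval pools. Only non-retrieval replicate 2 reached into the retrieval range. Between groups the log2 fold change was 0.40 (95% interval 0.09 to 0.70), and edgeR's adjusted p was 0.146, or 0.0477 without non-retrieval replicate 2. Tagln (transgelin, an actin-binding protein of smooth muscle) had 0, 3, 5 and 1 counts in non-retrieval and 1, 3, 4 and 1 counts in retrieval. A count of 0 in non-retrieval replicate 1 allows up to 0.106 CPM, a floor of 3 counts that covers counting error only. These values stand near or below that floor, so no fold is given. The exons of Tagln overlap those of Pcsk7 on the opposite strand, a gene with 4274 counts over the 8 libraries. Whether overlapping reads were left out of the counts is not given in the sources used here.

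Fibroblast genes varied most within groups. Their median within-group SD was 0.43 on the log2 CPM scale, against 0.16 for endothelial, 0.15 for mural and 0.15 for all tested genes. Dcn, Lum, Col3a1 and Slc6a13 had only 10 to 134 counts per library. The part of counting noise in their spread was not tested. Mean fibroblast level was 2.11, 2.41, 1.89 and 2.84 log2 CPM in non-retrieval replicates 1 to 4 and 2.86, 2.42, 2.74 and 2.25 in retrieval replicates 1 to 4. Non-retrieval replicate 4 and retrieval replicates 1 and 3 were therefore the high libraries, a split that crosses the groups. Without Ptgds the same 3 libraries were highest, at 2.02, 2.06 and 1.90.

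Col1a2 was the exception in that it was called. The gene lies on chromosome 6 from 4504814 to 4541544. The stretch before its RefSeq start, inside the span that the count table gives the gene but clear of annotated exons, is shown for its pair of GC boxes in capitals.
Col1a2 (GRCm38.p6, chr6:4505370-4505492, plus strand): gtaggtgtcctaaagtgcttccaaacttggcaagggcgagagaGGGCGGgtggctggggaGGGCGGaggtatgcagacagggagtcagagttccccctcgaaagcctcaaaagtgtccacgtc
It measured 10.2, 11.8, 10.9 and 13.4 CPM in non-retrieval pools and 16.8, 13.1, 16.01 and 16.8 CPM in retrieval pools. Only retrieval replicate 2 fell into the non-retrieval range, below non-retrieval replicate 4. The log2 fold change was 0.44 (SE 0.11, 95% interval 0.21 to 0.66), at an adjusted p of 0.0271 by edgeR's quasi-likelihood test. Leaving out any of 5 libraries (replicates 1 to 3 of non-retrieval, replicates 3 and 4 of retrieval) ended the call, with edgeR adjusted p between 0.0525 and 0.0929. A correction for gene length and GC content lowered the log2 fold change to 0.30 (edgeR adjusted p = 0.108), and the myelin covariate gave 0.58 (edgeR adjusted p = 0.113).

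The partner chain of type I collagen, Col1a1, measured 4.19, 7.64, 4.53 and 7.54 CPM in non-retrieval pools and 7.57, 6.67, 6.32 and 5.76 CPM in retrieval pools. The retrieval libraries all lay within the non-retrieval range, and the log2 fold change was 0.14 (95% interval -0.23 to 0.52). Col3a1, the chain of type III collagen, was at -0.10 (95% interval -0.70 to 0.50). The leucine-rich proteoglycan genes Dcn (decorin) and Lum (lumican) were at 0.33 (95% interval -0.16 to 0.81) and 0.08 (95% interval -0.70 to 0.86). Lum had 10 to 39 counts per library, so its wide interval goes with few counts.

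Ptgds measured 100.5, 95.6, 87.9 and 211 CPM in non-retrieval pools and 202, 146, 218 and 124 CPM in retrieval pools. Non-retrieval replicate 4 stood with the highest retrieval libraries, apart from its own group. By log2 fold change the difference was 0.48 (95% interval 0.0015 to 0.95), and edgeR's adjusted p was 0.269. Without non-retrieval replicate 4 it was 0.87, at an edgeR adjusted p of 0.00449. Slc6a13, a GABA and taurine transporter of leptomeningeal cells, measured 1.90, 3.58, 1.85 and 4.51 CPM in non-retrieval pools and 3.74, 2.91, 4.40 and 2.64 CPM in retrieval pools, with a log2 fold change of 0.21 (95% interval -0.33 to 0.75). Both genes had their highest values in non-retrieval replicate 4 and retrieval replicates 1 and 3. The myelin markers, by contrast, were highest in retrieval replicates 2 and 4, at summed levels of 6276 and 5722 CPM. Choroid plexus and ependymal markers, 9 in all, summed to 6.20 to 9.82 CPM in non-retrieval and 7.47 to 18.5 CPM in retrieval, highest in retrieval replicate 2. The defining choroid plexus genes Ttr and Otx2 were near 0, with at most 6 and 3 counts in any library, while the 4 markers of the list with enough counts to test had a median log2 fold change of 0.53 and no call. The part of myelin and ependymal cells in the Ptgds values was not tested.

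Of the shared matrix genes, Fn1 gave the firmest result among the 33. Fn1 lies on chromosome 1 from 71585520 to 71653200 and encodes fibronectin, a matrix glycoprotein of vessels and meninges that other cells can make as well. It measured 40.5, 42.8, 39.7 and 42.6 CPM in non-retrieval pools and 54.3, 64.2, 70.3 and 57.9 CPM in retrieval pools. Every retrieval library was above every non-retrieval library. Means were 41.4 ± 1.54 and 61.7 ± 7.07 CPM (SD, n = 4 each). The log2 fold change was 0.57 (SE 0.08, 95% interval 0.41 to 0.74), at an adjusted p of 0.00038 by edgeR's quasi-likelihood test. Fn1 was called under all 17 alternatives tried, with log2 fold changes between 0.45 and 0.64, and with the myelin covariate it was 0.59 (edgeR adjusted p = 0.0225).

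Col4a1 and Col4a2 encode the chains that assemble into the type IV collagen of vascular basement membranes. They are read in opposite directions from start sites 21 bases apart on chromosome 8, and their annotated exons overlap. Col4a1 measured 29.4, 32.3, 32.3 and 27.9 CPM in non-retrieval pools and 30.02, 35.2, 39.8 and 36.2 CPM in retrieval pools, with a log2 fold change of 0.21 (95% interval 0.03 to 0.40) and an edgeR adjusted p of 0.201, or 0.0302 without retrieval replicate 1. Col4a2 measured 41.1, 43.3, 43.2 and 40.4 CPM in non-retrieval pools and 35.2, 44.5, 48.4 and 38.8 CPM in retrieval pools, with a log2 fold change of -0.01 (95% interval -0.19 to 0.18). In both genes retrieval replicate 3 was the highest library.

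The ratio of Col4a1 to Col4a2, in counts per base of gene model, was 0.634, 0.662, 0.663 and 0.613 in non-retrieval and 0.756, 0.702, 0.728 and 0.83 in retrieval. All retrieval ratios were above all non-retrieval ratios, and the difference of mean log2 ratios was 0.23, or 0.18 to 0.26 with any 1 library left out. The same ratio for Col1a1 to Col1a2 was 0.963 ± 0.221 in non-retrieval and 0.803 ± 0.134 in retrieval (SD, n = 4 each), and that for Kcnj8 to Abcc9 was 1.59 ± 0.308 and 1.38 ± 0.475, both with overlap. These 3 pairs were chosen after their values were seen, so the ratios are given without a test.

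**Figure D4:**
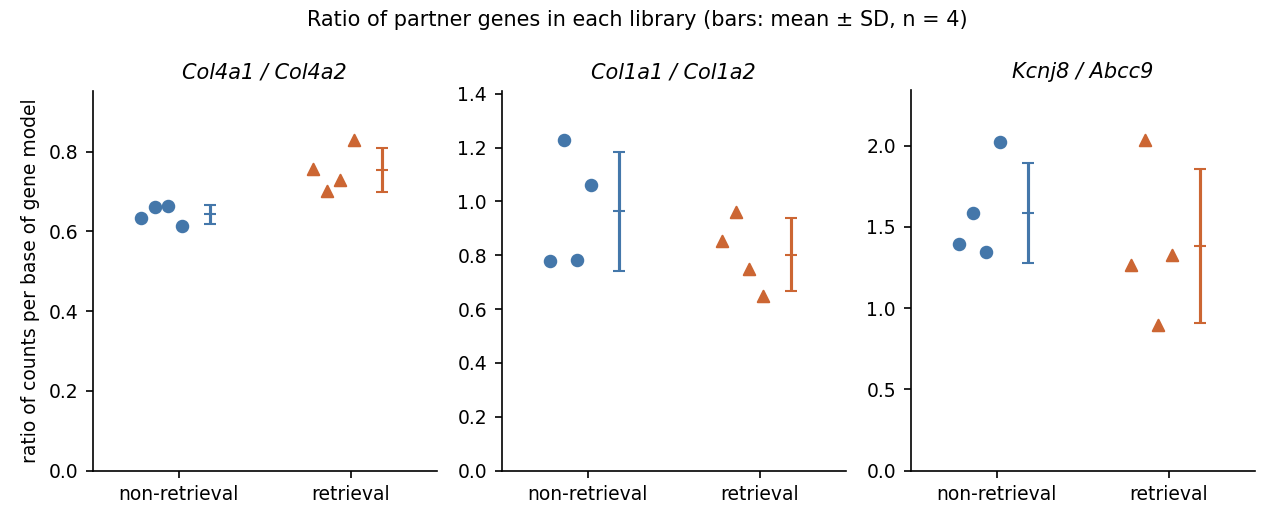
Ratio of partner genes in each library, in counts per base of gene model, with circles for non-retrieval, triangles for retrieval, and mean ± SD bars of 4 libraries. The Col4a1 to Col4a2 ratios separate by group, 0.613 to 0.663 against 0.702 to 0.83, while the other pairs overlap.

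Upstream windows of 250 bases before to 50 bases after a RefSeq start were at hand for 23 of the 34 genes, as 27 windows. TATAAA was found on either strand in 14.8% of these and in 13.6% of all 32841 mouse windows, CCAAT in 37% and 37.4%, GGGCGG in 44.4% and 35.7%, AGATAA, read by zinc-finger factors of endothelium, in 11.1% and 11.2%, and the AP-1 motif TGANTCA in 3.7% and 7.81%. The CArG box, the serum response factor motif of smooth muscle genes, was searched only as CCWWWWWWGG, with W for A or T. That exact spelling was in 1.63% of all windows and in none of the 27. Among the 27 was the window of Acta2 but not those of Myh11, Tagln or Fn1. Sites with G or C in the core were not counted, so these windows can still hold other forms of the box. The 1 AP-1 site lay before Ptgds.

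The markers were set beside 6 lists of other vascular genes, drawn up with earlier results of these data known. Their counts and medians are therefore a description and no independent support. Bulk libraries do not show which cells gave the reads of a listed gene. Of all tested genes, 3.67% were called higher. In VEGF, angiopoietin and Notch signalling, 4 of 31 tested genes rose and none fell, with a median log2 fold change of 0.11. They were Notch1 (0.47, edgeR adjusted p = 0.0364), Pdgfb (0.41, edgeR adjusted p = 0.0102), which recruits pericytes through Pdgfrb, and the VEGF and semaphorin co-receptors Nrp2 (0.33, edgeR adjusted p = 0.0326) and Nrp1 (0.28, edgeR adjusted p = 0.0412). Vegfa, the ligand of Flt1 and Kdr, was at 0.08 (edgeR adjusted p = 0.644), and Notch3, a receptor of mural cells, at 0.26 (edgeR adjusted p = 0.164). The call of Pdgfb held with any 1 library left out. Nrp2 was no longer called when replicate 3 or 4 of non-retrieval, or replicate 4 of retrieval, was left out (edgeR adjusted p between 0.104 and 0.126), Nrp1 without any library but non-retrieval replicate 2 (0.0526 to 0.144), and Notch1 without any but non-retrieval replicate 2 and retrieval replicate 1 (0.0731 to 0.132). With upper-quartile scaling 1 of the 4 calls was left, and the edgeR adjusted p was 0.0566 for Notch1, 0.0537 for Nrp2 and 0.0669 for Nrp1. Without retrieval replicate 1, Notch3 passed (0.0151). Neurons and glia make Pdgfb, Notch1 and the neuropilins as well, so their levels do not belong to vessels alone.

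Among 36 other genes of barrier junctions, transport and endothelial Wnt signalling, 6 rose and 1 fell, with a median of 0.12. Of all tested genes, 4.57% were called in either direction and 3.67% as higher. Whether the barrier list differed from the 15 endothelial markers was not tested. Slc2a1, the glucose transporter GLUT1, measured 85.1, 93.5, 93.4 and 97.2 CPM in non-retrieval pools and 111, 140.3, 141.7 and 139.8 CPM in retrieval pools. Its groups did not overlap, and the log2 fold change was 0.53 (edgeR adjusted p = 0.000774). Also higher were Lsr (angulin-1, of tricellular junctions) at 0.75, the Wnt and norrin receptor Fzd4 at 0.56, the lipid transporter Mfsd2a at 0.41 and the junction scaffold Tjp1 (ZO-1) at 0.26. The last of the 6 that rose had the largest p of the called genes. It is not named, since at most 6 called genes were named per list. Tfrc, the transferrin receptor, fell by 0.30 on the log2 scale, at an edgeR adjusted p of 0.0167. Slc2a1, Lsr and Fzd4 held their calls with any 1 library left out. Mfsd2a was no longer called when replicate 2 or 3 of non-retrieval, or replicate 3 or 4 of retrieval, was left out (edgeR adjusted p between 0.0574 and 0.0758), as did Tjp1 without replicate 3 or 4 of either group (0.0865 to 0.0905) and Tfrc without replicate 3 of either group, non-retrieval replicate 1 or retrieval replicate 4 (0.0593 to 0.0649).

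In the basement membrane list, 3 of 22 genes rose and 20 had a log2 fold change above 0, with a median of 0.18. Of all tested genes, 3.67% were called higher and 47.8% had a log2 fold change above 0. The 3 were the perlecan gene Hspg2 (0.49), the nidogen gene Nid1 (0.41) and the laminin chain gene Lamc1 (0.38). Of 18 smooth muscle contraction genes, Smtn (smoothelin, 0.55) and Srf (serum response factor, 0.46) rose, with a median of 0.15 for the list. Over the 8 libraries Srf averaged 66.5 CPM, against 8.61 for Myh11 and 7.56 for Acta2. Which cells gave the Srf reads was not tested. Lamc1 and Srf held their calls with any 1 library left out. Hspg2 lost its call without any library but non-retrieval replicate 2 and retrieval replicate 1 (edgeR adjusted p 0.0563 to 0.087), Nid1 without any but non-retrieval replicate 4 and retrieval replicate 1 (0.0572 to 0.0891), and Smtn when replicate 3 or 4 of non-retrieval, or replicate 2 or 4 of retrieval, was left out (0.0501 to 0.0663). None of 15 further pericyte genes was called by edgeR with all libraries and no block, while limma-voom, the replicate block and the fit without retrieval replicate 1 each called 1. At an unadjusted p under 0.05 in the main edgeR fit there were 2, both higher. Of all tested genes, 18.5% passed that mark in either direction and 11.2% as higher. The lowest p-values of the pericyte list belonged to the transcription factor genes Zic1 (0.32, edgeR adjusted p = 0.205) and Foxf2 (0.30, edgeR adjusted p = 0.234).

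Among 35 other fibroblast and matrix genes 2 rose, a share near the 3.67% of all tested genes. P4ha1, the catalytic subunit of collagen prolyl 4-hydroxylase, measured 42.8, 46.4, 46.3 and 43.3 CPM in non-retrieval pools and 78.5, 64.3, 69.4 and 77.2 CPM in retrieval pools. Its groups were well apart, by 0.69 on the log2 scale (edgeR adjusted p = 1.7e-05). Serpinh1, the collagen chaperone HSP47, was at 0.54 (edgeR adjusted p = 0.00214). The median of this list was 0.20. With the mean myelin level as a covariate, P4ha1 was the 1 gene of these 6 lists that edgeR still called. That fit called 126 genes in all, against 766 without the covariate, which itself did not overlap between groups.

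**Figure D5:**
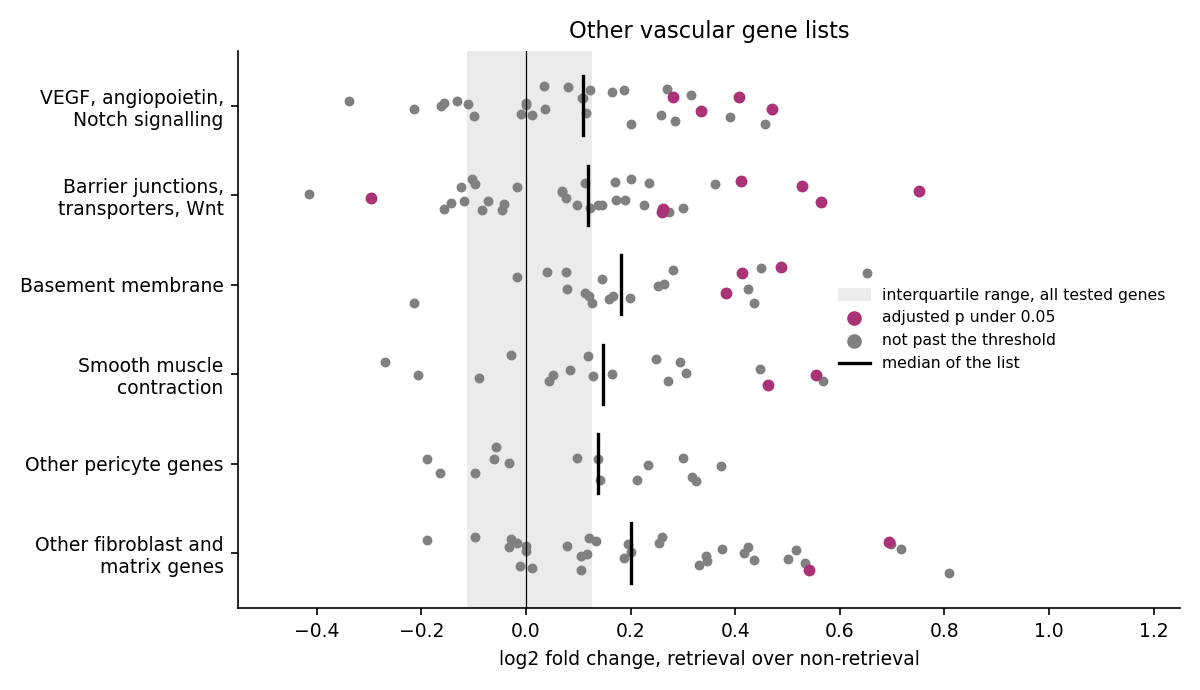
Log2 fold change of each tested gene of the 6 other vascular lists, 1 point per gene, with the list median as a black line and the interquartile range of all tested genes (-0.11 to 0.12) shaded. The list medians lie between 0.11 and 0.20, and 1 coloured point, Tfrc, is below 0.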

How the data were processed

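RNA-seq of mouse medial prefrontal cortex gave 8 libraries, 4 per group by the treatment label. The authors deposited raw counts per gene with gene lengths. HISAT2 2.0.5, featureCounts 1.5.0-p3 and the build GRCm38 are named in the submitters' processing notes, with no roles. The strand setting is not given in the sources used here. The table held 0 columns of other samples. Counts were scaled with TMM, filtered with filterByExpr and tested with edgeR 4.0.16 (quasi-likelihood F test, two-sided, R 4.3.3) over all genes, with Benjamini-Hochberg adjustment. CPM were scaled with the TMM factors. Class levels are means of log2 CPM with a prior count of 2. Alternatives were other scalings and filters, DESeq2 1.42.0, limma 3.58.1 (voom), a replicate block, a myelin covariate, a length and GC offset, and each library left out. The code was tested on simulated data. No 2 libraries of a group agreed within sampling noise (chi-square per degree of freedom 6.23 to 24.65).

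All 34 genes could be named. From each other vascular list, called genes up to 6 by smallest p were named, or else the 2 with the smallest p, and Vegfa, Slc2a1, Notch3, Pdgfb and Srf always. Genes and lists were chosen with earlier results of these data known. Of 242 symbols in the other lists, 240 were found. Upstream sequences and start sites are RefSeq's, on GRCm38.p6, and stretches with annotated exons were not printed. Replicate numbers were not taken as pairs, since no label ties them. Same-number correlations were 0.221, 0.085, 0.027 and 0.1, and those of different numbers ran from -0.139 to 0.045.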

Additional observations from a re-analysis of the deposited data

Results flagged for a closer look

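In groups of 4 libraries, 1 library stood far from the other 3 by Dixon's ratio for 4 of the genes. Flt1 was 64.1 CPM in non-retrieval replicate 4 against 72.0 to 73.2 in the other non-retrieval libraries. Acta2 was 7.64 CPM in retrieval replicate 4 against 8.81 to 9.01 in its group. Lum was 0.356 CPM in non-retrieval replicate 3 against 1.09 to 1.17. Ptgds was 211 CPM in non-retrieval replicate 4 against 87.9 to 100.5. Chance alone marks about 1 in 20 such groups, and 68 gene and group combinations were examined.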

How the results depend on the processing

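Over 17 alternatives, 495 of 560 log2 fold changes of the 33 genes kept their direction and their side of the threshold, 13 newly passed it, 19 lost it and 33 changed sign. Genes called in all numbered 766, and 1619 in limma-voom with quality weights, 1791 with a replicate block, 126 with the myelin covariate, 1355 with the length and GC offset, and 330 to 1360 with 1 library left out. Markers called numbered 3, and 5, 6, 1, 1 and 1 to 5 under the same settings. The 6 with the replicate block were Fn1, Col1a2, Myh11, Acta2, Flt1 (edgeR adjusted p = 0.0232) and Vtn (0.00973). The share of higher calls was 80.3%, but 61.3% with the length and GC offset, 68.6% in limma-voom and 90.5% with the myelin covariate. The fibroblast median was 0.58 with the myelin covariate. The causes were not tested. Each library correlated best with its own number, a hint from the data only. Ptgds passed without a low-count filter (edgeR adjusted p = 3.8e-09), though DESeq2 gave 0.543.

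Sign changes touched uncalled genes alone. With the myelin covariate, log2 fold changes were -0.033 for Pecam1, -0.044 for Esam, 0.15 for Slco1a4, 0.15 for Abcb1a, -0.043 for Eng, 0.036 for Emcn, 0.21 for Itm2a, 0.053 for Rgs5, 0.032 for Col3a1 and -0.012 for Foxf2. In limma-voom they were 0.063 for Kdr, 0.013 for Abcb1a, 0.011 for Pdgfrb and -0.21 for Lum. With 1 library left out, ranges were -0.017 to 0.09 for Pecam1, -0.0848 to 0.0792 for Kdr, -0.0072 to 0.070 for Ocln, -0.11 to 0.039 for Abcb1a, -0.14 to 0.0024 for Emcn, -0.11 to 0.039 for Pdgfrb, -0.28 to 0.033 for Kcnj8, -0.26 to 0.20 for Col3a1, -0.19 to 0.33 for Lum and -0.0854 to 0.0716 for Col4a2. The pair ratios and the named genes of other lists were rerun as alternatives chosen after seeing the data. With 4 pools a group, small differences in low-count genes such as Lum and Col3a1 cannot be resolved.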
